A study of Mus musculus with 8 samples.

Results

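Mouse spleen CD4 T cells sorted as positive and as negative for a KLF2 reporter were compared 48 h after both had been given anti-CD3 and anti-CD28. The comparison used 4 of the 8 libraries of the series, 2 of stimulated KLF2+ cells (replicates 1 and 2) and 2 of stimulated KLF2- cells (replicates 3 and 4), chosen by their titles and columns, and all 25124 genes of the table. All cells came from animals with a green reporter of KLF2 and a red reporter of FOXP3, and every group was sorted as FOXP3-negative and CD44hi before culture, so regulatory T cells and naive cells were meant to be absent from both sides. Stimulation was 2.5 micrograms/mL of antibody to CD3, which engages the T cell receptor, and 1.25 micrograms/mL of antibody to CD28, a costimulatory receptor. The other 4 libraries were the same sorted populations kept for 48 h without antibody, and they give the level of each gene in each population without the stimulus. The age of the animals is not stated in the labels. The labels do not say that replicates came from separate animals or cultures, and each p-value therefore reflects only how far these samples vary, possibly for technical reasons.

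KLF2 is a zinc finger transcription factor of quiescent T cells. It keeps on the gene for the sphingosine phosphate receptor S1PR1, by which T cells leave lymph nodes, and it is shut down when the T cell receptor is engaged. CD44hi CD4 cells without FOXP3 are antigen-experienced cells, a mixture of memory and effector states that includes Th1, Th2, Th17 and innate-like cells. When such cells are stimulated they take up nutrients, build ribosomes, enter the cell cycle and secrete cytokines. The comparison therefore asked how 2 populations that differ in KLF2 at the time of sorting differ after the same stimulus.

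The 2 stimulated groups differed in library quality as well as in KLF2. Of the tags aligned from stimulated KLF2+ cells, 62.04% and 80.3% lay in exons, and from the stimulated KLF2- side 12.7% and 7.96% did. The groups did not overlap, and the exact two-sided permutation test gave p = 0.333, the smallest that 2 libraries against 2 allow. Reads in exons numbered 21.03 M and 36.6 M in KLF2+ and 4.53 M and 2.99 M in KLF2- libraries. Background was read from olfactory and vomeronasal receptor genes, genes of the nose with no known role in T cells. At their density of reads per kb of exon, the estimated background share of exon reads was 1.24% and 0.401% for stimulated KLF2+ cells, against 11.4% and 20.1% in stimulated KLF2- cells. The unstimulated libraries lay between, with 2.61% to 7.800%.

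**Figure D1:**
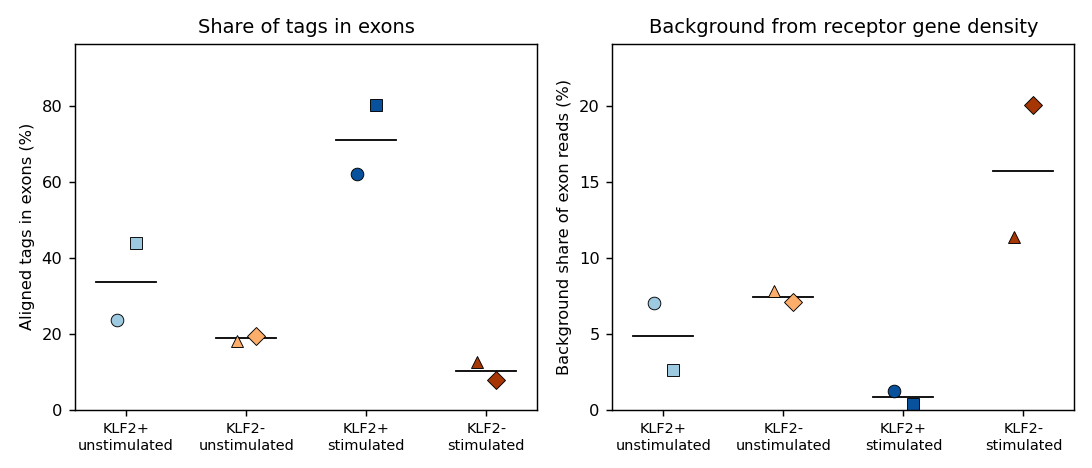
Share of aligned tags in exons (left, percent) and estimated background share of exon reads (right, percent) in the 8 libraries. Circles, squares, triangles and diamonds are replicates 1, 2, 3 and 4, and the bars are group means of 2 libraries. Stimulated KLF2+ libraries had the highest exon shares and the lowest background, and stimulated KLF2- libraries the reverse.

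The 2 stimulated KLF2- libraries also differed from each other. Summed over 34 genes of S phase, the level was 9799.6 and 8897 corrected CPM (counts per M exon reads after background subtraction, where M stands for mega) in the stimulated KLF2+ libraries and 4384 and 1668 in the KLF2- ones. The unstimulated libraries held 1890.1 and 1839.8 in KLF2+ and 1762 and 1636 in KLF2- cells. On this measure the library labelled stimulated KLF2- replicate 4 lay in the range of the unstimulated libraries, and replicate 3 lay above it. For 32 genes of G2/M phase replicate 4 stood at 741 and replicate 3 at 2909.7, both above the unstimulated libraries (356 to 538). For most lists below, counts of called genes are therefore also given from the corrected fit without replicate 4 and without replicate 3. In bulk RNA, fewer cells of a kind and less RNA per cell cannot be told apart.

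Because the groups differed in background, the comparison was fitted in edgeR on the counts as deposited and again after subtraction of background, and genes are called higher or lower in KLF2+ cells below only where both fits gave an adjusted p under 0.05 in the same direction. As deposited, 14396 of 19146 genes passed (75.2%), of which 6799 were higher (35.5%) and 7597 lower (39.7%). With background removed, 8329 of 15292 (54.5%) were called, 2575 higher (16.8%) and 5754 lower (37.6%). Both fits called 2431 genes higher, which is 15.9% of the 15292, and 4003 lower, which is 26.2%. Over all genes the median was -0.19 on the log2 scale before correction and -0.42 after it, and -1.37 when the deposited counts were scaled from genes of at least 50 CPM. The share of called genes that were higher moved with scaling, from 47.2% as deposited to 17.2% with that scaling, and from 30.9% after correction to 51.4% when the corrected counts were scaled from all genes. The difference depended on level before and after correction. Genes with a mean of 1 to 3 TPM had a median log2 fold change of -2.95 as deposited and -3.56 after correction, and genes of 100 TPM or more had 1.84 and 0.60. Under 1 TPM the order was turned, with -3.05 for 2639 genes as deposited and 7.94 for the 95 that could be tested after correction. The shares called after correction differed by level too. At 3 to 10 TPM 5.10% were higher and 55.3% lower, at 30 to 100 TPM 35.2% and 17.5%, and at 100 TPM or more 56.8% and 9.41%. The shares of all genes given beside the lists below are not matched for level.

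**Figure D2:**
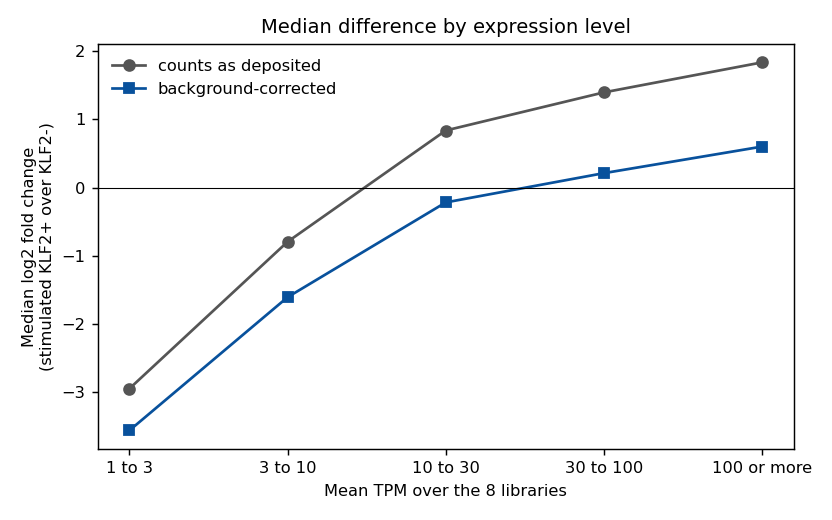
Median log2 fold change of stimulated KLF2+ over KLF2- cells (vertical axis) for genes binned by mean TPM over the 8 libraries (horizontal axis), for counts as deposited (grey circles) and after background correction (blue squares). Both lines climb from about -3 at the lowest level shown to above 0 at the highest, and the corrected line lies below the other in each of the 5 bins shown. Genes under 1 TPM are not drawn.

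The higher and the lower genes stood differently to background. Genes higher in both fits had a median density of 307 and 950.2 times that of the receptor genes in KLF2+ libraries, and of 19.6 and 8.20 times in KLF2- libraries. Genes lower in both fits had medians of 2.50 and 2.87 times in KLF2+ libraries and of 3.44 and 3.14 times in KLF2- libraries, so that their ratio to background was nearly alike on both sides. Of the 4003 lower genes, 828 exceeded the 95th percentile of receptor genes in both KLF2- libraries and 141 exceeded the 99th. In both KLF2+ libraries more of them did, 1007 and 479. Of the 213 lower genes with a mean of at least 50 corrected CPM, 61 exceeded the 99th in KLF2- and 171 in KLF2+ libraries. A density above the receptor genes in KLF2- libraries therefore does not by itself show a higher level there. Of the 2431 higher genes, 2422 exceeded the 95th percentile in both KLF2+ libraries and 2383 the 99th. The receptor genes themselves were called lower in 396 of 486 cases before correction and in 188 of 268 after it. For genes on the lower side the density in KLF2- libraries is therefore given, as times that of the receptor genes. When only genes above the 95th percentile in both libraries of a group were tested after correction, 50.2% were called, 23% higher and 27.2% lower. Both percentiles were set after the data were seen.

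The genes of the sort were read first. Klf2 (mm10 chr8:72319062-72321654) stood at 327 and 319 corrected CPM in unstimulated KLF2+ and 47.5 and 74.5 in unstimulated KLF2- libraries. After stimulation it stood at 63.6 and 93.7 corrected CPM in KLF2+ and 64.4 and 137 in KLF2- libraries. Stimulated groups overlapped, where the unstimulated groups did not. With stimulus it differed by -0.34 ± 0.37 (SE, n = 2 per group; adjusted p = 0.45) after correction and 0.93 (adjusted p = 0.024) on the counts as deposited, and -0.27 when the deposited counts were scaled as in the corrected fit with no background subtracted, so that the sign turned with the scaling alone. S1pr1, the exit receptor that KLF2 controls, overlapped between the groups as well, at 212 and 314 corrected CPM in KLF2+ and 180.5 and 679.9 in KLF2- libraries, and was called in neither fit. Foxp3, the factor sorted against, was low, at 13.2 and 14.1 corrected CPM in KLF2+ and 5.505 and 0 in KLF2- libraries. It was called higher in KLF2+ cells on the counts as deposited and was not called after correction (adjusted p = 0.09). Over 33 other settings Foxp3 lost that call in 15 and changed sign in 0. Cd4 and Cd44 changed sign between the 2 fits. With the deposited counts scaled as in the corrected fit and no background subtracted, they already had -0.45 and -1.08. Cd4 stood at 509 and 567 against 691 and 886 corrected CPM, with 0.73 as deposited and -0.55 after correction. Cd44 stood at 95.8 and 118 against 175 and 290.1, with 0.12 and -1.12.

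The T cell label fitted its markers. Of 20 T cell identity genes 6 were higher in both fits and 0 were lower, where 15.9% and 26.2% of all genes were. As deposited 19 were called higher and 0 lower, and the corrected fit alone called 6 higher and 3 lower. The corrected median was 0.09. Their summed level was 9722 and 10297 corrected CPM in KLF2+ and 8408 and 9986 in KLF2- libraries. Among the 6, Cd2, an adhesion and costimulatory receptor, stood at 632 and 714 corrected CPM in KLF2+ and 266 and 216 in KLF2- libraries, a corrected difference of 1.48 ± 0.20 on the log2 scale (SE, n = 2 per group; adjusted p = 0.0018). Cd247, the zeta chain of the T cell receptor complex, differed by 0.78, and Cd28, the receptor that was stimulated, by 0.54. Lcp2, the adaptor SLP-76, differed by 0.46. Both KLF2+ libraries exceeded both KLF2- libraries for these 4 genes, which had been picked by their p. Over the 20 genes this held for 8 after correction and the reverse for 5, where 30.9% and 50% of all genes did so. Without stimulated KLF2+ replicate 1 the corrected fit called 3 members higher, with an adjusted p of 0.054 for Cd28 and 0.070 for Lcp2, and without replicate 2 it was 0.074 for Lcp2. It was 0.058 for Lcp2 without unstimulated KLF2- replicate 4, and 0.064 for Cd28 and 0.10 for Lcp2 with only the 4 stimulated libraries.

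Genes of cell division were higher in stimulated KLF2+ cells as a group. In both fits 27 of 34 S phase genes and 23 of 32 G2/M genes were higher and 0 were lower, against 15.9% of all genes. The corrected median log2 fold changes were 1.67 and 1.86. Both KLF2+ libraries exceeded both KLF2- libraries in 34 of 34 and 32 of 32 genes after correction, which 30.9% of all genes did. Without stimulated KLF2- replicate 4 the corrected fit called 30 S phase and 23 G2/M genes higher (13.9% of all genes, with 44.1% called in all and 30.2% lower), and without replicate 3 it called 32 and 28 (20.2%, with 58.8% in all and 38.6% lower). These counts depended on the correction and on the KLF2+ libraries. The corrected fit called 16 S phase and 8 G2/M genes without stimulated KLF2+ replicate 1, and 17 and 12 without replicate 2. Without unstimulated KLF2- replicates 3 and 4 in turn, it called 15 and 14 G2/M genes. It called 18 and 8 when 2 times the background was subtracted, and 13 and 3 when only the 4 stimulated libraries were fitted. No S phase or G2/M gene was called lower in any of these fits.

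Cdk1, the kinase that drives entry into mitosis, stood at 258 and 211 corrected CPM in KLF2+ and 83.1 and 21.8 in KLF2- libraries, against 18.6 and 10.5 and 15.8 and 13.6 in the unstimulated groups. After correction it differed by 2.12 ± 0.53 (SE, n = 2 per group; adjusted p = 0.013), 1.45 without replicate 4 and 3.41 without replicate 3. KLF2- replicate 3 was well above the unstimulated libraries and replicate 4 was close to them. Ndc80, a subunit of the kinetochore complex that grips microtubules, stood at 143 and 121 against 57.7 and 26.8 corrected CPM and differed by 1.63 ± 0.34. Ect2, an exchange factor for the cleavage furrow, stood at 123 and 108 against 70.4 and 41.2 and differed by 1.04 ± 0.25. Cenpe, a kinetochore motor, stood at 105 and 85.9 against 44.3 and 13.6 and differed by 1.69 ± 0.46. Among S phase genes, Rfc3, a subunit of the clamp loader, stood at 84.9 and 91.2 against 32.8 and 26.8 and differed by 1.56 ± 0.21. Mcm10, which helps to open replication origins, stood at 84.8 and 79.1 against 38.5 and 20.2 and differed by 1.46 ± 0.32. Rpa2, a subunit of the protein that coats single-stranded DNA, stood at 195 and 179 against 91.9 and 81.9 and differed by 1.10 ± 0.14. In each of these 7 genes both KLF2+ libraries were above both KLF2- libraries, and replicate 3 was above replicate 4. Without stimulated KLF2+ replicate 1 the corrected adjusted p was 0.063 for Ect2 and 0.075 for Cenpe. With only the 4 stimulated libraries it was 0.054 for Cdk1, 0.054 for Ect2 and 0.072 for Cenpe.

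Cell cycle promoters are known for a few short elements, and 3 promoters of the genes above are printed to show them. The windows are RefSeq sequences of build GRCm38.p6, from 250 bases before to 50 after the start, 5′ to 3′ on the strand of the gene, and capitals mark the elements TTTGAA (CHR), CCAAT and GCGGGAA (E2F) on either strand. Cdk1 lies at chr10:69352863-69353162 and Ect2 at chr3:27153829-27154128, and Rfc3 at chr5:151651159-151651458, all on the minus strand.
Cdk1: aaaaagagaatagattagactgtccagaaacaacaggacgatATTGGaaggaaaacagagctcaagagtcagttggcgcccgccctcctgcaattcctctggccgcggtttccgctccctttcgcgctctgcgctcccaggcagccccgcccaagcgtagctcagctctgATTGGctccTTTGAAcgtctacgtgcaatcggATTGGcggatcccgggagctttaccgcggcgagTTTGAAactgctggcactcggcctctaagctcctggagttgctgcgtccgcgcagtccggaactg
Ect2: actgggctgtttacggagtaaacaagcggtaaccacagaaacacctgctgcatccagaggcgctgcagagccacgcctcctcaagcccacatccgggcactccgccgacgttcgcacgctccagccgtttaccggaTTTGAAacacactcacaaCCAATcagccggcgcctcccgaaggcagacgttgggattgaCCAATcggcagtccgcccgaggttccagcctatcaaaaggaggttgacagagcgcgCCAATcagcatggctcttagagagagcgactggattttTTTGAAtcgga
Rfc3: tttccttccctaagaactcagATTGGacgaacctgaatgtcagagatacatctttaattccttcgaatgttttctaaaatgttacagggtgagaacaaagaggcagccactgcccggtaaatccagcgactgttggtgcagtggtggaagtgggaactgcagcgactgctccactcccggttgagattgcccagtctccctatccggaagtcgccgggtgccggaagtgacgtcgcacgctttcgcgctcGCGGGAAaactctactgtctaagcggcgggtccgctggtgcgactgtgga
The Cdk1 window holds 2 CHR and 3 CCAAT matches and 0 E2F matches, and the Ect2 window 2, 3 and 0. The Rfc3 window holds 0, 1 and 1. Promoters were matched for 28 of 32 G2/M genes and 28 of 34 S phase genes. The CHR letters were in 22 of 28 G2/M promoters (78.6%), in 3 of 28 S phase promoters (10.7%) and in 14.3% of 14851 promoters of tested genes. CCAAT was in 22 G2/M promoters (78.6%), 16 S phase promoters (57.1%) and 38.6% of all. The E2F letters were in 0 of the G2/M promoters, in 13 of the S phase promoters (46.4%) and in 6.94% of all. A match is a description of the letters in the window and not a site of binding, and 0 matches says only that these letters are not in it.

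Genes for building proteins were higher in stimulated KLF2+ cells throughout. All 30 cytosolic ribosomal protein genes tested, all 27 proteasome genes and all 20 cytosolic aminoacyl-tRNA synthetase genes were higher in both fits. Of all genes 15.9% were higher and 26.2% lower in both fits. Of genes of 100 TPM or more, 91.9% were called higher as deposited and 56.8% after correction. Their corrected median log2 fold changes were 1.61, 1.02 and 0.97. Rpsa, a protein of the small ribosomal subunit, stood at 877 and 761 corrected CPM in KLF2+ and 231 and 199.6 in KLF2- libraries and at 394 and 385 and 249 and 236 in unstimulated KLF2+ and KLF2- cells. It differed by 1.93 ± 0.14 (SE, n = 2 per group; adjusted p = 0.00076), and the KLF2- values with stimulus were near those without it. Rps24, Rpl18 and Rpl7a differed by 1.63, 1.38 and 1.61. Psmb4, a proteasome core subunit, stood at 239 and 228 against 82.8 and 71.6 and differed by 1.59 ± 0.16. Psmd1, of the regulatory particle, stood at 363 and 346 against 205 and 212 and differed by 0.77 ± 0.11. The tyrosine and glutamine synthetase genes Yars and Qars differed by 1.52 ± 0.22 and 0.84 ± 0.14. For ribosome biogenesis 21 of 28 genes were higher and 0 lower in both fits, among them the nucleolar genes Rrs1 (1.40 ± 0.18), Bop1 (1.14 ± 0.18), Ddx21 (1.21 ± 0.22) and Nop16 (1.77 ± 0.32). Counts for these lists without replicate 4 were 30, 27, 17 and 19 in the corrected fit. Without replicate 3 they were 30, 27, 20 and 23, and the last fell to 13 when only the 4 stimulated libraries were fitted.

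**Figure D3:**
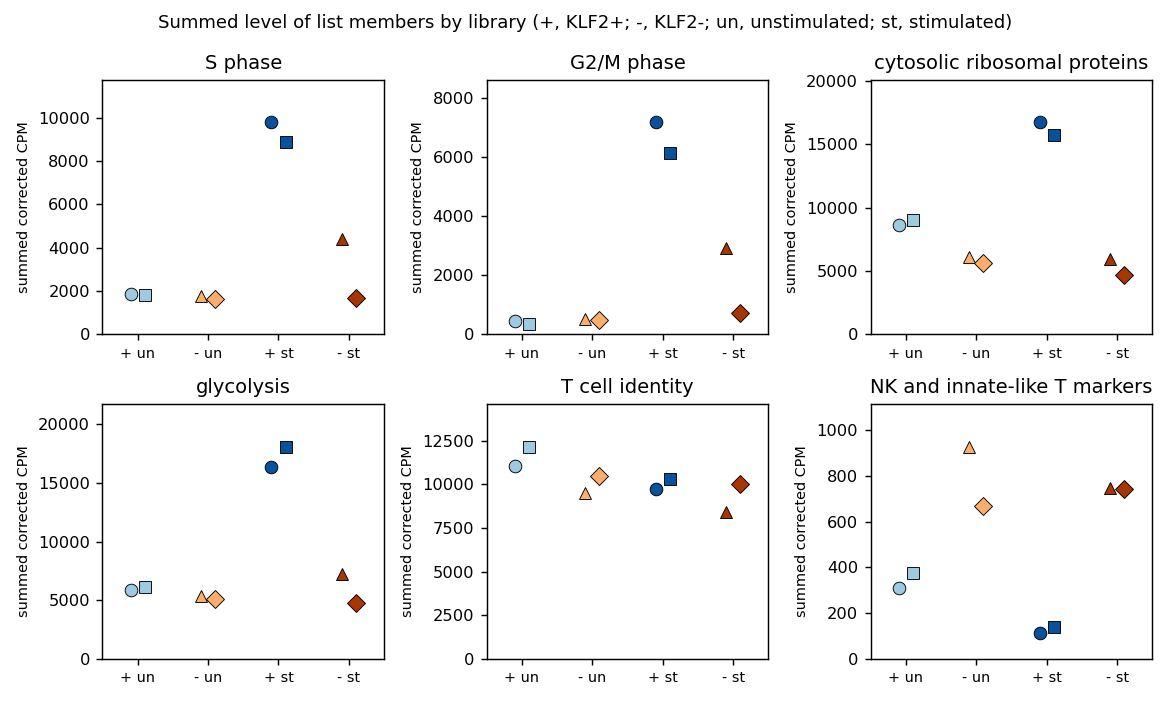
Summed background-corrected CPM of 6 gene lists (vertical axes start at 0) in each of the 8 libraries, with circles, squares, triangles and diamonds for replicates 1 to 4. In S phase and G2/M phase stimulated KLF2- replicate 3 lies between the KLF2+ and the unstimulated libraries, T cell identity genes are near level, and NK and innate-like markers are lowest in stimulated KLF2+ cells.

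Metabolic genes followed the same direction. In both fits 16 of 23 glycolysis genes were higher and 1 was lower, 28 of 31 genes of oxidative phosphorylation were higher and 0 lower, and 17 of 24 genes of cholesterol synthesis were higher and 0 lower. Of the amino acid and one-carbon list 20 of 29 were higher and 1 was lower. Of all genes 15.9% were higher and 26.2% lower in both fits, and of the 5190 genes of at least 50 corrected CPM 1659 and 213 were. Tpi1, a triose phosphate isomerase of glycolysis, stood at 760.4 and 1008 corrected CPM in KLF2+ and 179.8 and 76.5 in KLF2- libraries and differed by 2.77 ± 0.37 (SE, n = 2 per group; adjusted p = 0.0018). It was about as low in stimulated KLF2- replicate 4 as in the unstimulated libraries (106 and 107 and 101 and 84.1). Pgk1, the kinase that makes ATP in glycolysis, differed by 2.07 ± 0.20, Gpi1, the next enzyme after glucose phosphorylation, by 1.37 ± 0.12, and Slc2a1, the glucose transporter GLUT1, by 1.47 ± 0.18. Fdps, which makes farnesyl diphosphate, stood at 222 and 257 against 77.3 and 58.03 and differed by 1.82 ± 0.18. Sqle and Lss, which act on squalene, differed by 1.23 ± 0.19 and 1.88 ± 0.33, and Nsdhl by 1.71 ± 0.27. Mthfd2, the mitochondrial folate enzyme, stood at 189 and 209 against 102 and 74.5 and differed by 1.17 ± 0.17, with Mthfd1l at 1.59, Impdh2 of guanine nucleotide synthesis at 1.29 and Got2, the mitochondrial aspartate aminotransferase, at 0.80. Cox4i1 and Ndufc2 of the respiratory chain differed by 1.26 ± 0.16 and 1.36 ± 0.21. Both KLF2+ libraries were above both KLF2- libraries for each gene so far, all picked by their p. By list this held after correction for 17 of 23 glycolysis, 31 of 31 oxidative phosphorylation, 21 of 24 cholesterol and 24 of 29 amino acid genes. The reverse held for 2, 0, 0 and 3. Of all genes 30.9% lay above and 50% below. The lower members were Pfkfb3, a regulator of glycolysis, and Slc7a11, the cystine transporter, named after their values were seen, at 12.9 and 7.700 and at 1.41 and 1.41 times the receptor density in KLF2- libraries. The corrected fit called 16 higher and 2 lower without KLF2- replicate 4 and 17 and 2 without replicate 3 for glycolysis, in the same order 26 and 29 higher with 0 and 0 lower for oxidative phosphorylation, 16 and 18 higher with 0 and 0 lower for cholesterol synthesis, and 21 and 22 higher with 1 and 2 lower for the amino acid list. It called 9 cholesterol genes without stimulated KLF2+ replicate 2, and 11 cholesterol and 11 amino acid genes when only the 4 stimulated libraries were fitted.

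Protein folding genes were also higher. Of 21 unfolded protein response genes 13 were higher and 0 lower in both fits, with Creld2 (1.75 ± 0.19), Manf (1.74 ± 0.23), Pdia6 (1.41 ± 0.13) and Atf4 (0.83 ± 0.13) among them. Of 12 heat shock genes 5 were higher and 1, Hspb1, was lower (2.49 and 1.51 times the receptor density in KLF2-). Hsp90aa1, a chaperone, stood at 973 and 783 corrected CPM in KLF2+ and 270.2 and 179 in KLF2- libraries, and the chaperonin gene Hspe1 at 201 and 192 against 70.8 and 30.5. Of 23 p53 and apoptosis genes 3 were higher and 0 lower, where 15.9% and 26.2% of all genes were, and Trp53 itself differed by 0.84 ± 0.13. Replication-dependent histone genes were higher in 6 of 15, at low levels. Hist1h4d stood at 32.1 and 38.97 corrected CPM in KLF2+ and 4.07 and 1.65 in KLF2- libraries. Without stimulated KLF2+ replicate 1 or 2, or KLF2- replicate 4, the corrected fit called 3, 2 and 3 histone genes. For the unfolded protein response list the corrected fit called 12 higher and 1 lower without KLF2- replicate 4 and 15 and 1 without replicate 3, for heat shock in the same order 5 and 7 higher with 0 and 1 lower, and for the p53 list 1 and 9 higher with 6 and 6 lower. The p53 list fell to 1 call higher without stimulated KLF2+ replicate 1, KLF2+ replicate 2, KLF2- replicate 4 or unstimulated KLF2- replicate 4.

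Several cytotoxic genes were higher in stimulated KLF2+ cells, and others were lower. Gzmb (mm10 chr14:56258836-56262334), the granzyme that cleaves caspases in target cells, stood at 535 and 598 corrected CPM in KLF2+ and 18.9 and 14.4 in KLF2- libraries, and at 12.7 and 14.2 and 12.4 and 9.32 in the unstimulated groups. After correction it differed by 5.07 ± 0.21 (SE, n = 2 per group; adjusted p = 0.00023), 4.85 without replicate 4 and 5.29 without replicate 3. The 2 KLF2+ libraries were high and the 6 others were low. Gzma stood at 401 and 444 corrected CPM in KLF2+ and 22.02 and 0 in KLF2- libraries, where the KLF2- value came from replicate 3, and at 2.69 and 1.62 and 34.3 and 17.9 in unstimulated KLF2+ and KLF2- cells. Nkg7, a granule membrane protein, stood at 228 and 185 against 46.9 and 5.35 and differed by 2.90 ± 0.67, with an adjusted p of 0.056 with only the 4 stimulated libraries. Srgn, the proteoglycan that packs granules, stood at 1072 and 1101 against 411 and 321 and differed by 1.57 ± 0.18, and Ctsc, the protease that activates granzymes, by 0.65 ± 0.14. Of the 18 cytotoxic genes tested 6 were higher and 4 were lower in both fits, where 15.9% and 26.2% of all genes were. The lower ones were Gzmd, Gzme, Gzmm and Serpinb9, the inhibitor of granzyme B, which stood at 74.9 and 75.1 corrected CPM in KLF2+ and 589 and 366 in KLF2- libraries (-2.67 ± 0.24), and naming these 4 followed sight of their values. The density in KLF2- libraries was 96.7 and 30.7 times that of receptor genes for Serpinb9, against 1.49 and 3.17 for Gzmd, 2.73 and 2.84 for Gzme and 4.73 and 2.43 for Gzmm, and these 3 did not exceed the 95th percentile of receptor genes in both libraries. The corrected fit alone called 7 cytotoxic genes lower, 4 without stimulated KLF2+ replicate 1 and 2 without replicate 2. The cytotoxic list had 7 higher and 5 lower without KLF2- replicate 4 and 6 and 7 without replicate 3. The corrected adjusted p rose to as much as 0.19 for Gzmd, without stimulated KLF2- replicate 4, and 0.076 for Gzme and 0.093 for Gzmm, both without stimulated KLF2+ replicate 2.

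Th1 and chemokine genes were higher in part, where 15.9% of all genes were higher and 26.2% lower in both fits. Of the 5190 genes with a mean of at least 50 corrected CPM, 1659 were higher and 213 lower in both fits. Of 20 Th1 genes 8 were higher and 0 lower in both fits, and the corrected fit alone called 8 higher and 3 lower, or 7 and 5 without replicate 4 and 10 and 4 without replicate 3. The 3 lower calls fell to 0 without either stimulated KLF2+ library, and the list had 15 higher and 0 lower as deposited and 9 higher and 1 lower with corrected counts scaled from all genes. Ifng stood at 119.9 and 91.1 corrected CPM in KLF2+ and 24.7 and 12.3 in KLF2- libraries, and at 16.00 and 19.98 and 24.3 and 40.8 without stimulus. It differed by 2.48 ± 0.38 (SE, n = 2 per group; adjusted p = 0.0026), and both stimulated KLF2- libraries lay below the highest unstimulated one, with replicate 4 the lowest of the 8. The inflammatory chemokine genes Ccl3 and Ccl4 stood at 41.02 and 26.5 against 0.957 and 0 and 69.8 and 48.4 against 8.38 and 4.12 corrected CPM. Il12rb2, the inducible chain of the IL-12 receptor, stood at 142 and 155 against 31.8 and 16.9 and differed by 2.58 ± 0.28.

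Th2 and B cell help genes were higher in part, and Il5 and Il21 stood at 0 in both stimulated KLF2- libraries. Of 15 Th2 genes 5 were higher and 0 lower in both fits, where 15.9% and 26.2% of all genes were. Il4 stood at 68.2 and 43.4 corrected CPM in KLF2+ and 15.3 and 8.64 in KLF2- libraries and differed by 2.20 ± 0.47 (SE, n = 2 per group; adjusted p = 0.0076), with an adjusted p of 0.053 without stimulated KLF2+ replicate 1. Nfil3, a basic leucine zipper factor, stood at 274 and 288 against 112 and 48.97 and differed by 1.79 ± 0.34. Il5 stood at 5.06 and 13.2 corrected CPM in KLF2+ libraries and at 0 in both KLF2- libraries, and with each KLF2- library set to a floor of 3 counts it was at least 4.101-fold higher, and it was not called without stimulated KLF2+ replicate 2 (adjusted p = 0.10). The corrected fit called 2 Th2 genes higher without either stimulated KLF2+ library and 3 without stimulated KLF2- replicate 4 or either unstimulated KLF2- library. Il21, the cytokine of B cell help, stood at 100.3 and 116 against 0 and 0 and was at least 81.2-fold higher. Of 18 Tfh genes tested 5 were higher and 2 were lower. The higher ones included Pou2af1, a coactivator, at 67.4 and 71.4 against 8.62 and 15.2, Sh2d1a, the adaptor SAP, at 146 and 138 against 65.6 and 74.9, and Slamf1 at 65.5 and 53.3 against 31.1 and 34.2. Bcl6, the factor that defines Tfh cells, was on the lower side, at 11.3 and 18.9 against 53.1 and 47.3 (-1.73 ± 0.29), and was named after its value was seen. Its density in KLF2- libraries was 7.17 and 3.74 times that of receptor genes, not above their 95th percentile in both. Without stimulated KLF2+ replicate 1, Slamf1 had a corrected adjusted p of 0.070. On the counts as deposited, Bcl6 had an adjusted p of 0.33 without that library, 0.18 without stimulated KLF2- replicate 3, and 0.064 and 0.063 without unstimulated KLF2- replicates 3 and 4. The other lower member was the IL-6 receptor gene Il6ra (12.3 and 11.9 times the receptor density in KLF2-). The Tfh list had 5 higher and 5 lower without KLF2- replicate 4 and 6 and 9 without replicate 3, and the Th2 list in the same order 3 and 8 higher with 2 and 1 lower.

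Genes of suppression and of the TNF receptor family were higher in stimulated KLF2+ cells in part. Il10 (mm10 chr1:131019845-131024970), the anti-inflammatory cytokine, stood at 62.7 and 77.2 corrected CPM in KLF2+ and 7.898 and 1.23 in KLF2- libraries and at no more than 1.07 in any unstimulated library. It differed by 3.83 ± 0.67 (SE, n = 2 per group; adjusted p = 0.0036), 3.10 without replicate 4 and 5.80 without replicate 3. Both KLF2+ libraries were high, KLF2- replicate 3 was at a low level and replicate 4 was close to background (1.26 times the receptor density). Ctla4, the checkpoint receptor, stood at 355 and 434 corrected CPM in KLF2+ and 60.6 and 64.2 in KLF2- libraries and at 54.5 and 88.3 and 59.6 and 81.3 in the unstimulated groups, and differed by 2.66 ± 0.27. Here the 2 stimulated KLF2- libraries lay together, inside the range of the unstimulated libraries. Lgals1, the lectin galectin-1, stood at 612 and 591 corrected CPM in KLF2+ and 92.6 and 58.03 in KLF2- libraries and differed by 2.99 ± 0.22. Ebi3, a subunit of IL-27 and IL-35, stood at 66.8 and 91.9 against 23.2 and 18.9 and differed by 1.91 ± 0.25. Tnfrsf8, which encodes CD30, stood at 140.3 and 184 corrected CPM in KLF2+ and 12.7 and 10.3 in KLF2- libraries, and Tnfrsf4, which encodes OX40, at 742 and 949.7 corrected CPM in KLF2+ and 258 and 115 in KLF2- libraries, with 3.80 ± 0.68 and 2.17 ± 0.37. Tnfrsf9, which encodes 4-1BB, stood at 156 and 209 against 97.7 and 79.8 and Icos at 465 and 451 against 299 and 223. Tigit stood at 34.6 and 43.5 against 9.33 and 4.53 and differed by 2.45 ± 0.41.

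By list, 6 of 17 suppressive molecules, 6 of 12 TNF receptor family and costimulation genes, 5 of 16 Treg identity genes and 3 of 17 inhibitory receptors were higher in both fits, and 1, 0, 3 and 2 were lower. Of all genes 15.9% were higher and 26.2% lower in both fits, so the inhibitory receptors were near the share of higher genes. After correction alone the counts were 6 higher and 3 lower, 6 and 3, 5 and 4, and 3 and 5, and with corrected counts scaled from all genes 7 higher and 2 lower, 7 higher and 0 lower, 8 higher and 4 lower, and 5 higher and 3 lower. The 3 TNF receptor family genes lower after correction fell to 1 without either stimulated KLF2+ library, and that list had 8 higher and 0 lower as deposited. The suppressive list had 7 higher and 5 lower without KLF2- replicate 4 and 6 and 4 without replicate 3, the TNF receptor list in the same order 6 and 6 higher with 2 and 4 lower, the Treg list 6 and 10 higher with 4 and 4 lower, and the inhibitory receptors 5 and 4 higher with 6 and 7 lower. The lower suppressive molecule was Cd274 (29.9 and 17.7 times the receptor density in KLF2-), and the lower inhibitory receptor genes were Cd244a (2.69 and 2.83 times) and Tox (24.2 and 17.1 times). On the counts as deposited Cd274 had an adjusted p of up to 0.31, without stimulated KLF2+ replicate 2. The 3 lower Treg identity genes were Ikzf2, Nrp1 and Gpr83, of which Ikzf2, which encodes Helios, was taken by the naming rule. Gpr83 had 4.65 and 4.22 times the receptor density in KLF2- libraries. Ikzf2 stood at 15.9 and 10.3 corrected CPM in KLF2+ and 139.5 and 247 in KLF2- libraries (-3.88 ± 0.43), a density of 9.15 and 8.21 times that of receptor genes in KLF2- and of 9.55 and 18.2 times in KLF2+. Nrp1, a semaphorin co-receptor, stood at 62.1 and 76.4 corrected CPM in KLF2+ and 224 and 574 in KLF2- libraries (-2.52 ± 0.39), with 21.9 and 27.8 times the receptor density in KLF2-, and had an adjusted p of 0.051 on the counts as deposited without stimulated KLF2+ replicate 1. Pdcd1, which encodes PD-1, had a log2 fold change of 0.99 as deposited and -0.28 after correction, where it was not called. Tgfb1 stood at 46.3 and 97.8 corrected CPM in KLF2+ and 75.2 and 43.6 in KLF2- libraries, overlapped, and was not called after correction (0.27 ± 0.37).

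**Figure D4:**
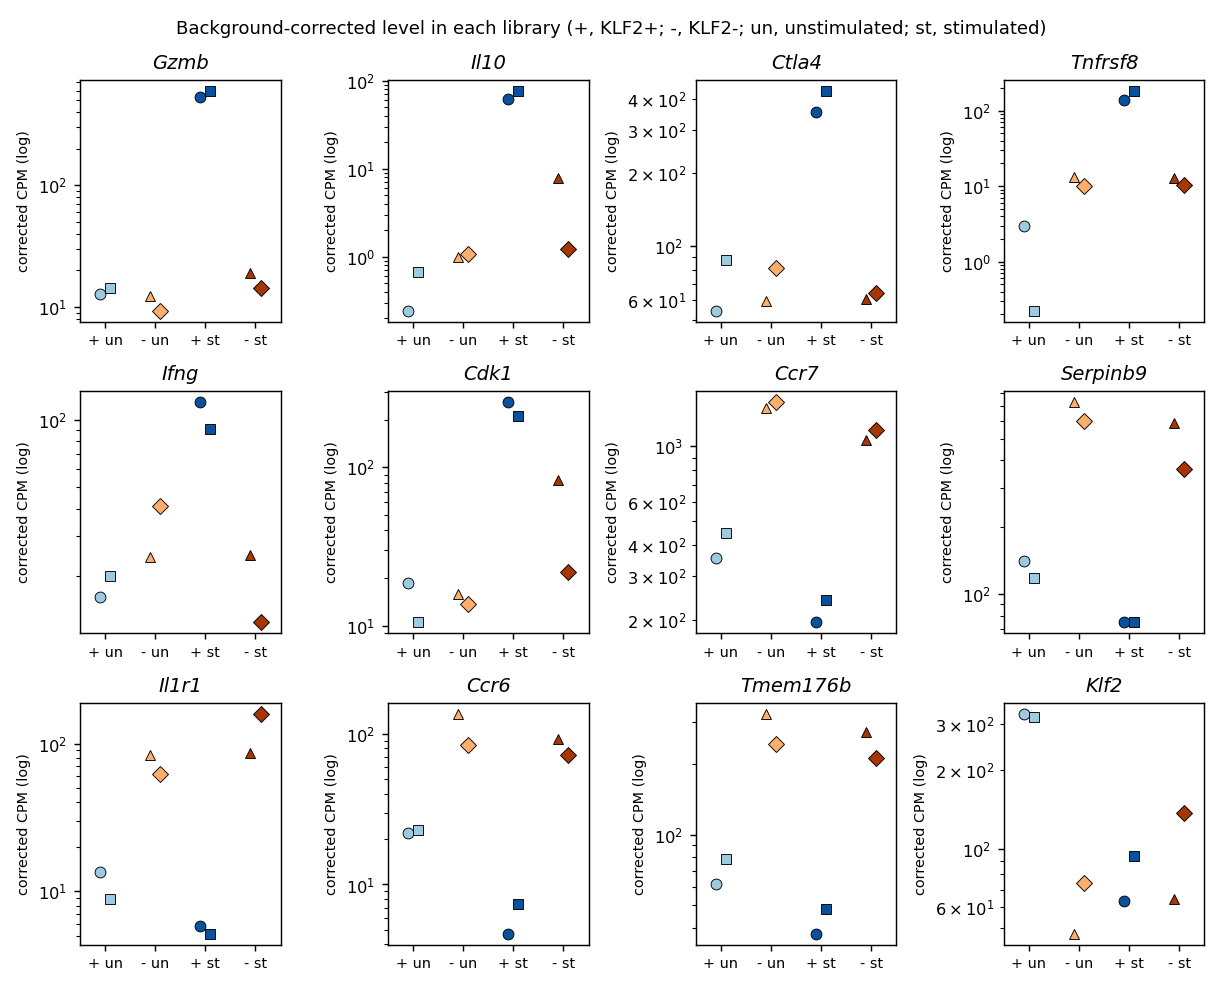
Background-corrected CPM (log axis, own scale in each panel) of 12 genes in each of the 8 libraries, with circles, squares, triangles and diamonds for replicates 1 to 4. For the first 6 genes the 2 stimulated KLF2+ libraries lie above all others, for the next 5 all KLF2- libraries lie above all KLF2+ libraries, and Klf2 is high only in the unstimulated KLF2+ libraries.

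Early response, cytokine signalling and interferon-stimulated genes were called higher at shares not far from the 15.9% of all genes. Of 32 early T cell receptor response genes 6 were higher and 2, Nr4a2 and Spry2, lower in both fits, and the corrected fit called 2 higher without stimulated KLF2+ replicate 2, 3 without unstimulated KLF2- replicate 4 and, on the lower side, 3 of 6 without stimulated KLF2+ replicate 1. Batf, a factor of activated T cells, stood at 271 and 300.03 corrected CPM in KLF2+ and 83.8 and 75.7 in KLF2- libraries and differed by 1.84 ± 0.13 (SE, n = 2 per group; adjusted p = 0.00076), with both KLF2- libraries at the level of the unstimulated groups (76.2 and 81.3 and 79.9 and 79.5). Junb, its partner, stood at 525 and 663 against 298 and 392 and differed by 0.79 ± 0.18, with an adjusted p of 0.059 without stimulated KLF2+ replicate 2 and 0.055 with only the 4 stimulated libraries. Of 20 genes of common gamma chain cytokine receptors and their signalling 5 were higher and 0 lower, among them Socs3, a feedback inhibitor (2.66 ± 0.33), Il21r (0.89 ± 0.14), Jak3 (0.89 ± 0.21) and the kinase Pim2 (1.25 ± 0.27). Of 34 interferon-stimulated genes tested 8 were higher and 3, Oasl1, Rsad2 and Ifi44, lower. The corrected fit alone called 9 higher and 8 lower, with 4 higher without either stimulated KLF2+ library and 3 lower without replicate 2. The interferon list had 22 higher and 3 lower as deposited and 17 higher and 5 lower when the corrected counts were scaled from all genes, and the early response list 25 higher and 2 lower and 14 higher and 3 lower, so that their balance moved with scaling. Of the lower genes named here, Nr4a2 had 4.104 and 5.55, Spry2 4.87 and 3.18, Oasl1 3.18 and 2.19, Rsad2 5.32 and 7.06 and Ifi44 2.91 and 3.54 times the receptor density in KLF2- libraries. Gbp2, a guanylate-binding protein induced by interferon gamma, stood at 668 and 599.8 corrected CPM in KLF2+ and 180.2 and 104 in KLF2- libraries and differed by 2.15 ± 0.28, with Gbp3 at 164 and 155 against 76.1 and 95.9 and Ifit3 at 26.04 and 25.9 against 0.718 and 0. Early response genes had 9 higher and 6 lower without KLF2- replicate 4 and 9 and 6 without replicate 3, the gamma chain list in the same order 6 and 11 higher with 3 and 4 lower, and interferon-stimulated genes 8 and 15 higher with 8 and 9 lower. Il2 itself was low, at 2.32 and 3.59 corrected CPM in KLF2+ and 26.6 and 6.996 in KLF2- libraries. It was not called on the counts as deposited (-1.47, adjusted p = 0.052) and was lower after correction (-2.51 ± 0.76, adjusted p = 0.026), with an adjusted p of 0.17 without replicate 3. Il17a had 7 and 93.5 reads in KLF2+ and 1.5 and 4 in KLF2- libraries, was not called (adjusted p = 0.18) and was too low for the corrected fit.

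A group of genes was lower in stimulated KLF2+ than in KLF2- cells at densities well above background. Ccr7 (mm10 chr11:99144199-99155077), the receptor that takes T cells into lymph nodes, stood at 196 and 240.5 corrected CPM in KLF2+ and 1062 and 1163 in KLF2- libraries, 298 and 163 times the receptor density in the latter. It differed by -2.35 ± 0.17 after correction (SE, n = 2 per group; adjusted p = 0.00076) and by -1.07 as deposited. The same order held without stimulus, at 354 and 449 against 1432 and 1504 (-1.87, adjusted p = 0.0037), where 4.02% of 15292 genes were called and 3.03% were lower. Both KLF2- groups were above both KLF2+ groups in all libraries. Without stimulated KLF2+ replicate 1, Ccr7 had an adjusted p of 0.089 on the counts as deposited. Cd83, an activation marker, stood at 64.5 and 69.6 against 472 and 274 with stimulus and 82.8 and 87.1 against 470.2 and 410.4 without it (-2.48 ± 0.25 with stimulus, 123 and 36.3 times the receptor density in KLF2-). Tmem123 stood at 370.3 and 384 against 1256 and 1522 (-1.88 ± 0.14, 242 and 147 times the receptor density in KLF2-). As deposited, Cd83 had an adjusted p of 0.065 without replicate 3, and Tmem123 lost its call without replicate 3 (0.10), without either stimulated KLF2+ library (0.27 and 0.22) and without either unstimulated KLF2- library (0.13 each).

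Genes of Th17 cells lay on both sides. Of 15 Th17 genes 5 were lower and 3 higher in both fits, where 26.2% of all genes were lower and 15.9% higher, and the corrected fit without replicate 4 and without replicate 3 called 6 lower and 3 higher each. Of the 5 lower ones 4 are described here, and the 3 higher ones, Batf, Il21 and Il21r, also belong to other lists. Il1r1, an IL-1 receptor, stood at 5.79 and 5.15 corrected CPM in KLF2+ and 86.4 and 159 in KLF2- libraries, and at 13.4 and 8.88 and 83.5 and 62.5 without stimulus. It differed by -4.48 ± 0.37 (SE, n = 2 per group; adjusted p = 0.00085) with stimulus and by -2.73 (adjusted p = 0.011) without it. All 4 KLF2- libraries were high and all 4 KLF2+ libraries were low. The other 3 were named after their values were seen. Ccr6, the receptor for CCL20, stood at 4.702 and 7.47 against 92.4 and 72.02 (-3.75 ± 0.33), Il23r at 5.01 and 8.03 against 40.7 and 29.6 (-2.43 ± 0.39) and Rora at 95.99 and 88.9 against 284 and 377 (-1.84 ± 0.17). The density in KLF2- libraries was 11.1 and 10.3 times that of receptor genes for Il1r1, 33.8 and 13.8 for Ccr6, 10.1 and 4.28 for Il23r and 15.4 and 10.6 for Rora. On the counts as deposited, Il23r had an adjusted p of 0.051 without replicate 3, and Rora of 0.12 and 0.19 without stimulated KLF2+ replicates 1 and 2, and of 0.053 without either unstimulated KLF2- library.

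Of 16 NK and innate-like T markers tested 6 were lower and 0 higher in both fits, where 26.2% and 15.9% of all genes were. The list summed to 113 and 139.8 corrected CPM in stimulated KLF2+ and 745 and 744 in stimulated KLF2- libraries, and to 311 and 377 and 928 and 669 without stimulus. Tmem176a and Tmem176b, neighbouring membrane protein genes, stood at 23.7 and 28.00 against 168 and 148 and 37.9 and 48.3 against 272 and 212 corrected CPM, with -2.61 ± 0.20 and -2.49 ± 0.23. Klrb1b, a C-type lectin receptor of NK and innate-like cells, stood at 3.72 and 4.26 against 87.1 and 107 (-4.59 ± 0.34), and at 18.2 and 15.6 against 159.9 and 86.3 without stimulus. Fcer1g, a signalling chain of innate receptors, stood at 10.6 and 15.1 against 111 and 119 (-3.15 ± 0.29). Zbtb16, which encodes the innate-like T cell factor PLZF, stood at 11.00 and 6.76 against 49.8 and 89.7 (-2.97 ± 0.49), at 4.599 and 4.24 times the receptor density in KLF2- libraries, and did not exceed the 95th percentile of receptor genes in both of them. The density in KLF2- libraries was 88.5 and 39.7 times that of receptor genes for Tmem176a, 119 and 47.1 for Tmem176b, 22.8 and 14.4 for Klrb1b and 94.9 and 51.1 for Fcer1g. For the NK and innate-like list the corrected fit called 1 higher and 7 lower without KLF2- replicate 4 and 0 and 8 without replicate 3. The part of these cells in the other differences was not tested.

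**Figure D5:**
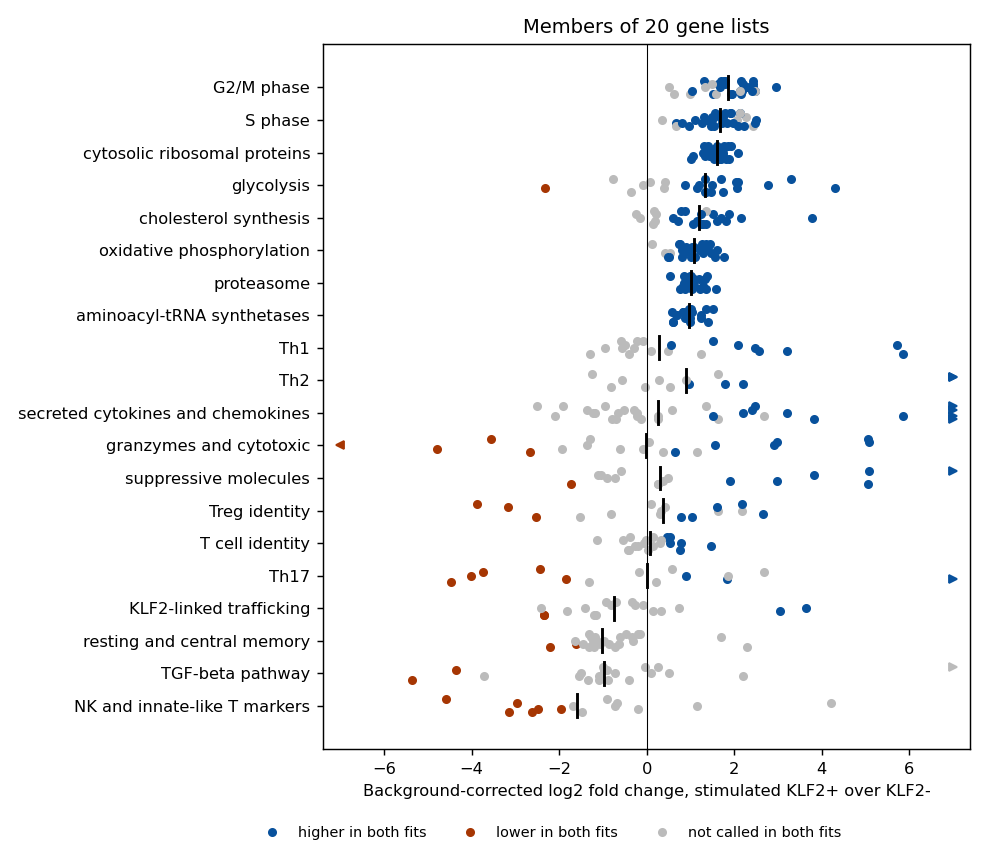
Background-corrected log2 fold change of stimulated KLF2+ over KLF2- cells (horizontal axis) for each tested member of 20 gene lists, with points spread vertically only for visibility. Blue and brown points are genes higher and lower in both fits, grey points the others, black bars list medians, and triangles values beyond ±7. The 8 lists at the top lie to the right of 0 with few exceptions, and the lists in the middle hold members on both sides.

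Trafficking, resting memory and TGF-beta lists depended on the fit, where 15.9% of all genes were higher and 26.2% lower in both fits. Of 18 KLF2-linked trafficking genes 8 were higher and 3 lower on the counts as deposited, 2 higher and 7 lower after correction, and 2 higher and 2, Ccr7 and Il6ra, lower in both. The higher ones were Ly6c2 and Ly6c1, surface proteins of a subset of memory cells. Ly6c2 stood at 71.7 and 62.2 corrected CPM in KLF2+ and 2.39 and 9.47 in KLF2- libraries (3.63 ± 0.62) and at 88.9 and 115 and 3.23 and 9.08 without stimulus, and Ly6c1 at 26.97 and 44.9 against 2.39 and 6.996 (3.04 ± 0.59). They are near-identical neighbours, so the split of reads between them is uncertain. Cd69, which retains cells in tissue, stood at 39.99 and 64.97 against 28.00 and 35.4 and was not called after correction (adjusted p = 0.06). Of 24 resting and central memory genes 6 were higher and 2 lower as deposited, 0 and 14 after correction, and 0 higher and 2, Bach2 and Ccr9, lower in both. These balances moved with scaling. Deposited counts scaled from genes of at least 50 CPM gave 2 higher and 18 lower memory genes and 2 and 9 trafficking genes. Corrected counts scaled from all genes gave 2 and 9, and 4 and 5. Bach2 had 7.801 and 5.34 and Ccr9 3.15 and 3.45 times the receptor density in KLF2- libraries. Without stimulated KLF2+ replicate 1 the corrected fit called 4 trafficking and 8 memory genes lower. With a library left out, the adjusted p as deposited rose to 0.20 for Bach2 (without stimulated KLF2+ replicate 2), 0.20 for Ccr9 (without KLF2- replicate 4) and 0.17 for Il6ra (without KLF2+ replicate 1). Satb1, a chromatin organiser, stood at 831 and 820.02 corrected CPM in KLF2+ and 441 and 62.1 in KLF2- libraries and Arl4c at 18.5 and 25.2 against 8.14 and 0, and neither was called after correction (adjusted p = 0.068 and 0.07). For Satb1 the KLF2- value was high in replicate 3 and low in replicate 4. Btg2 and Slfn2 had 0.80 and 1.14 as deposited and -0.47 and -0.15 after correction, where neither was called. Of 23 TGF-beta pathway genes 0 were higher and 2 lower in both fits, Tgfb2 and Ltbp1, at 4.01 and 3.59 and 3.67 and 2.67 times the receptor density in KLF2- libraries, and neither exceeded the 95th percentile of receptor genes in both of them. The corrected fit called 11 of the pathway lower, 6 without stimulated KLF2+ replicate 1 and 7 without replicate 2. Trafficking genes had 4 higher and 6 lower without KLF2- replicate 4 and 2 and 11 without replicate 3, memory genes in the same order 3 and 2 higher with 13 and 18 lower, and the TGF-beta list 0 and 2 higher with 8 and 10 lower. Smad2, the signal transducer, was not called after correction (0.51 ± 0.22).

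The naming rule took the genes with the largest differences as deposited. On the higher side, beside Il21, Gzma, Gzmb and Ccl3, they included Ifitm3, Car1, Akr1c18, Gcg and Blnk. Ifitm3, an antiviral membrane protein, stood at 83.5 and 82.2 corrected CPM in KLF2+ and 1.44 and 0 in KLF2- libraries and differed by 6.55 ± 0.62 (SE, n = 2 per group; adjusted p = 0.00095). Car1, a carbonic anhydrase, stood at 27.5 and 22.2 in KLF2+ and 0 in both KLF2- libraries (at least 17.99-fold higher). Akr1c18, a steroid dehydrogenase, stood at 94.7 and 66.9 against 5.03 and 0, and was not called after correction without stimulated KLF2+ replicate 1 (adjusted p = 0.068). Gcg, the glucagon gene, stood at 31.9 and 13.9 against 0 and 0 (at least 11.2-fold higher). Of 5190 genes with a mean of at least 50 corrected CPM, 1659 were higher and 213 lower in both fits. Among these genes Prxl2a (246 and 231 against 30.4 and 18.5), Glrx (352 and 298 against 48.3 and 57.2) and Tg (189 and 201 against 12.2 and 7.41) were among the highest, a selection made after the values were seen.

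On the lower side the genes described are Lrrc8e, Shisal1, Scn4b, Sfrp2, Trim67, Krt75, Stc1, Syt7 and Chad. Of these, only Chad stood far above the receptor genes, at 42.8 and 39.9 times their density in KLF2- libraries, and the other 8 had 1.33 to 7.03 times in each KLF2- library. Chad, which encodes the matrix protein chondroadherin, stood at 0.465 and 1.41 corrected CPM in KLF2+ and 127 and 237 in KLF2- libraries (-7.47 ± 0.53) and at 12.2 and 13.9 against 170.5 and 122 without stimulus. Lrrc8e had 0 corrected CPM in KLF2+ and 24.7 and 70.8 in KLF2- libraries, at 4.49 and 6.02 times the receptor density. A second selection, of the lowest corrected values at a mean of 50 corrected CPM or more, began with Chad, Il12b, Six4 and Ank3. The ankyrin gene Ank3 stood at 3.67 and 1.38 corrected CPM in KLF2+ and 73.00 and 131 in KLF2- libraries, and at 3.68 and 4.16 times the receptor density in KLF2+ against 6.78 and 6.196 in KLF2-. Il12b, a cytokine chain of antigen-presenting cells, stood at 2.01 and 1.00 against 51.5 and 188, at 12.3 and 21.7 times the receptor density in KLF2- and 5.12 and 7.32 in KLF2+ libraries. This selection and 2 earlier versions of it were made after the values were seen.

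Of the 5 most abundant genes called higher as deposited, 2 were also called after correction. Tmsb4x, the actin-binding thymosin, had a log2 fold change of 1.51 as deposited and 0.25 after correction, B2m, the light chain of MHC class I, 1.65 and 0.39, and H2-L, a class I heavy chain, 1.23 and -0.05. None of these 3 was called after correction. The class I heavy chain genes are near-identical, so the reads of H2-L are uncertain. Actb and Pfn1, of the actin cytoskeleton, differed by 2.13 ± 0.41 and 0.90 ± 0.26, and Pfn1 was not called after correction without either stimulated KLF2+ library (adjusted p = 0.062 each), without unstimulated KLF2- replicate 4 (0.063) or with only the 4 stimulated libraries (0.11). Among abundant genes on the lower side, beside Ccr7, Tmem123, Tmem176b and Cd83, was the pseudogene Pisd-ps3, at 94.96 and 88.8 against 456 and 689 (-2.64 ± 0.27, 88.95 and 67.4 times the receptor density in KLF2-), which shares sequence with its parent gene.

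Markers of other cell types lay in both directions, and in the stimulated libraries the dendritic cell list had the highest sums. In both fits 15.9% of all genes were higher and 26.2% lower. The macrophage and monocyte list was near both shares, and the basophil, mast cell and granulocyte list was near the share of lower genes. Of 15 B cell markers tested 4 were higher and 2 lower in both fits, and the list summed to 136 and 192 corrected CPM in KLF2+ and 108 and 258 in KLF2- libraries. Cd79b, a chain of the B cell receptor complex, stood at 21.8 and 23.7 against 7.42 and 1.23. The corrected fit called 2 B cell markers higher without either stimulated KLF2+ library, with an adjusted p for Cd79b of 0.050 and 0.063. Blnk, an adaptor of B cell receptor signalling, stood at 18.2 and 24.9 against 0 and 0 and was at least 14.8-fold higher. Of 22 macrophage and monocyte markers 4 were higher and 5 lower, with sums of 261 and 305 against 459 and 535. Lyz2, the macrophage lysozyme, stood at 22.2 and 40.6 against 1.44 and 12.3, against 764 and 1158 and 2.67 and 2.87 in unstimulated KLF2+ and KLF2- cells. The C-type lectin Clec4n stood at 6.51 and 9.79 against 0 and 0, the complement gene C1qa at 0 and 0 against 10.8 and 4.53, and the chemokine receptor Ccr2 at 69.2 and 49.4 against 25.1 and 4.94. Of the 5 lower macrophage markers only 1, Fcer1g, exceeded the 95th percentile of receptor genes in both KLF2- libraries, and C1qa did not. After correction Lyz2 had an adjusted p of 0.080 without stimulated KLF2- replicate 3 and without KLF2+ replicate 2, and Ccr2 of 0.079 without KLF2+ replicate 1 and 0.051 without unstimulated KLF2- replicate 4. With only the 4 stimulated libraries it was 0.14 for Lyz2, 0.098 for Ccr2 and 0.082 for Cd79b. The corrected fit called 5 markers of this list higher, and 2 or 3 without stimulated KLF2+ replicate 1 or 2, stimulated KLF2- replicate 3, unstimulated KLF2+ replicate 2 or unstimulated KLF2- replicate 4. Of 12 dendritic cell markers tested 1 was higher and 5 were lower, and the sums were 988 and 1207 against 3056 and 3319, to which the class II gene Cd74 gave 536 and 696 against 1985 and 1761 and H2-Aa 106 and 124 against 304 and 488. After correction both genes were lower in KLF2+ cells and on the counts as deposited neither was called. For this list the corrected fit called 1 higher and 9 lower without KLF2- replicate 4 and 1 and 9 without replicate 3. Flt3 stood at 2.69 and 2.79 against 45.5 and 82.7 and Zbtb46 at 2.74 and 3.12 against 27.8 and 54.7, at 7.89 and 7.27 and 6.95 and 6.87 times the receptor density in KLF2- libraries. Cd209a stood at 1.91 and 1.06 against 22.5 and 42.8 and Siglech at 1.39 and 1.29 against 10.1 and 42.8. These were 9.38 and 8.98 times the receptor density in KLF2- libraries for Cd209a and 3.22 and 5.76 for Siglech. Of 14 basophil, mast cell and granulocyte markers 0 were higher and 4 lower, with Prss34 at 0.413 and 0.382 against 18.9 and 24.7 and Ms4a2 at 3.51 and 1.71 against 16.99 and 27.2, and 2 were called lower after correction without stimulated KLF2+ replicate 2. Prss34 had 9.59 and 6.65 and Ms4a2 4.41 and 3.71 times the receptor density in KLF2- libraries. Of 11 erythroid and platelet markers 2 were higher and 0 lower in both fits, and the corrected fit called 3 higher, or 1 without either stimulated KLF2- library. Pf4 stood at 55.1 and 33.9 against 16.04 and 37.5 and overlapped. The CD8 marker Cd8b1 stood at 16.2 and 14.2 against 13.4 and 33.7 and was not called. The part of such cells in the differences above was not tested.

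The stimulated difference was also set against the unstimulated one, to show where it departed. After correction 1793 of 15292 genes (11.7%) were called for the difference between the 2 contrasts, and 6855 of 19146 (35.8%) as deposited. As deposited the contrast was called more positive with stimulus in 20.3% of genes tested and more negative in 15.5%, and after correction in 3.83% and 7.89%. These counts rested on single libraries: after correction only 1 gene was called without stimulated KLF2+ replicate 2, without unstimulated KLF2+ replicate 1, or without either unstimulated KLF2- library. The genes named here are therefore given as values. The contrast of Gzmb was 0.32 without stimulus and 5.07 with it, a difference of 4.75 (adjusted p = 0.0043). Klf2 went the other way, from 2.40 to -0.34, a difference of -2.74 (adjusted p = 0.035). Ccr7 and Tmem176b were lower in KLF2+ cells under both conditions, with differences of -0.48 and -0.48, neither of which was called. The same held for Ly6c2 on the higher side (4.03 and 3.63).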

How the data were processed

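RNA of sorted spleen CD4 T cells was sequenced in 8 libraries. The labels name a stranded kit for low RNA input, the titles name polyA, and how strand entered the counting is not given in the sources used here. STAR 2.7.9, HOMER 4.11, SAMtools and DESeq2 are named in the submitters' processing notes. The authors deposited estimated counts per gene from HOMER, which need not be whole since shared reads are divided, and TPM per gene, per the file headers, both on mm10. Values were rounded to integers for every count test.

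In R 4.3.3, edgeR 4.0.16 (quasi-likelihood test, TMM scaling, filterByExpr, Benjamini-Hochberg adjustment, threshold 0.05) was fitted to the counts of all 8 libraries in 4 groups, and the stimulated contrast was taken from it. Each SE was derived from the fold change and its F statistic. For the corrected fit, the reads per kb of 1464 olfactory and vomeronasal receptor genes, times each gene's exon length, were subtracted in each library, and scaling used genes of at least 50 CPM. DESeq2 1.42.0, limma 3.58.1 on log2(TPM + 1) and log2(TPM + 0.1), other scaling, filters, thinning, the replicate block and each library left out were alternatives. The code was tested on simulated data. A fold against a group at 0 uses a floor of 3 counts per library and covers counting error only.

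Genes were named by rule: the 10 largest and 10 smallest log2 fold changes called in both fits with at least 10 CPM and no overlap; up to 4 genes per list with the smallest p as deposited; 11 genes of the sort and main cytokines; the 5 most abundant called genes in each direction; and the 3 largest and 3 smallest differences between contrasts. Unnamed gene models, small RNAs and histones were passed over, except in lists. The members and lists were chosen with earlier results of these data known, and genes outside the rule are marked where they appear. A few genes meeting it are left out of the text.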

Additional observations from a re-analysis of the deposited data

Results flagged for a closer look

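The KLF2+ against KLF2- contrast differed between stimulated and unstimulated cells by a test of the difference itself in 6855 genes as deposited and in 1793 after background correction. Both tests called 1433 genes in the same direction, 534 with a more positive and 899 with a more negative contrast after stimulation. The 1433 were among 15292 genes tested after correction. Of 173 genes taken by the naming rule and tested, 76 met this in both fits, 61 positive and 15 negative. The rule picked genes by size or p in these data, and some by this difference itself. These 3 counts are therefore no measure of a wider pattern. The 6 with the extreme values are given here as differences of log2 contrasts after background correction. Gzma differed by 8.76, Car1 by 13.47 and Tnfrsf8 by 6.99. Lyz2 differed by -6.02, Lpl by -5.83 and Krt75 by -9.78. Car1 and Krt75 were at 0 corrected CPM in a whole group, so their values depend on the prior count. Lyz2 was high in the unstimulated KLF2+ libraries. After correction 1 gene was called for the difference without stimulated KLF2+ replicate 2, unstimulated KLF2+ replicate 1 or either unstimulated KLF2- library. Groups of 2 libraries are too small for a test of single outlying samples.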

How the results depend on the processing

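For stimulated KLF2+ against KLF2-, 14396 genes were called as deposited, against 8329 after correction, 8701 with background from other gene families, 5986 with 2 times the background and 8871 with a mean of at least 5 CPM. Leaving out a library gave 11690 to 15352 as deposited and 4648 to 9313 after correction, and only genes above the 99th percentile of receptor genes gave 4812. The corrected count was lowest without a stimulated KLF2+ library, at 5151 without replicate 1 and 4648 without replicate 2.

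For the difference between contrasts, 6855 genes were called as deposited, with 70 to 9581 over left-out libraries, 2294 with background from other gene families and 1 by limma on log2(TPM + 1) without a filter, where 9496 had an unadjusted p under 0.05. After correction 1793 were called, with 5365, 1157, 1005 and 1 without stimulated KLF2- replicates 3 and 4 and KLF2+ replicates 1 and 2, a range of 1 to 5365 over left-out libraries, and 319 with 2 times the background. With the replicate number as a block, 10857 were called as deposited and 3201 after correction. Same-numbered libraries deviated together at r = 0.54 in KLF2+ and 0.087 in KLF2- cells, so the numbers are not shown to pair the samples. The stimulated groups share no replicate number, and the block cannot enter that comparison.

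Of 162 genes of the text followed over all settings, 141 were called in both fits, 108 of these were called the same way under every setting that tested them and 114 with each of the 8 libraries left out in turn, as deposited and after correction, and 0 of the 141 changed sign. The 12 genes below changed sign, and each log2 fold change as deposited is followed by those of opposite sign, from the fits with background subtracted, scaling from genes of at least 50 CPM, limma on TPM and, for Cd44 and Cd8b1, filters, thinning or the 4 stimulated libraries alone as deposited. Btg2 had 0.80 against -0.64, -0.57, -0.56, -0.47, -0.46 and -0.39, with -0.71, -0.55, -0.50, -0.49, -0.48, -0.33 and -0.25 over left-out libraries. Cd4 had 0.73 against -0.71, -0.67, -0.64, -0.55, -0.54, -0.45 and -0.045, with -0.73, -0.59, -0.58, -0.57, -0.56, -0.44 and -0.41 over left-out libraries. Cd44 had 0.12 against -1.31, -1.27, -1.21, -1.16, -1.12, -1.11, -1.08, -0.61, -0.40, -0.31 and -0.076, with -1.45, -1.24, -1.14, -1.13, -0.94 and -0.76 over left-out libraries. Cd8b1 had 0.50 against -0.86, -0.81, -0.71, -0.63, -0.62, -0.61, -0.60, -0.51, -0.10 and -0.033, with -1.16, -0.68, -0.64, -0.63, -0.62 and -0.49 over left-out libraries. H2-L had 1.23 against -0.21, -0.18, -0.14, -0.052, -0.050, -0.049 and -0.038, with -0.13, -0.085, -0.082, -0.074, -0.067, -0.065 and -0.033 over left-out libraries. Il17a had 2.00 against -0.087 to 2.85 over left-out libraries. Klf2 had 0.93 against -0.50, -0.49, -0.43, -0.41, -0.34, -0.33 and -0.27, with -0.80, -0.61, -0.36, -0.35 and -0.051 over left-out libraries. Lpl had -0.37 against 1.72. Pdcd1 had 0.99 against -0.45, -0.37, -0.28, -0.27 and -0.20, with -0.54, -0.31, -0.30, -0.29, -0.17 and -0.040 over left-out libraries. S1pr1 had 0.66 against -0.82, -0.79, -0.70, -0.68, -0.62, -0.58 and -0.18, with -1.38, -0.97, -0.72, -0.71, -0.70 and -0.41 over left-out libraries. Slfn2 had 1.14 against -0.30, -0.27, -0.23, -0.15, -0.14, -0.13 and -0.038, with -0.27, -0.18, -0.17, -0.16, -0.074 and -0.048 over left-out libraries. Tgfb1 had 1.38 against -0.067 and -0.064, with -0.33 and -0.11 over left-out libraries. Scaling from genes of at least 50 CPM, with no background subtracted, by itself turned Btg2, Cd4, Cd44, Cd8b1, Klf2, Pdcd1, S1pr1 and Slfn2. Beyond this the cause was not tested. The stimulated KLF2- libraries held 4.53 M and 2.99 M exon reads, which limits low genes most.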
